A study of Mus musculus with 16 samples.

Results

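Chromatin accessibility was examined around 10 genes that steer myeloid progenitors between the monocytic and the granulocytic fate in mouse hematopoietic stem and progenitor cells (HSPCs). The monocytic regulators were Irf8, Irf4, Irf5, Klf4, Egr1, Egr2, Zeb2 and Nr4a1, the granulocytic regulator was Gfi1, and Id2 was kept apart. A member region was any merged ATAC-seq peak in the gene body or within 60 kb of it for Irf8 and within 20 kb of it for the other genes. These windows held 228 of the 296215 merged regions of the series: 204 at the monocytic regulators, 14 at Gfi1 and 10 at Id2. Of the 39310 regions that carried a peak in every library, 54 were member regions, and strength was tested on those 54.

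ATAC-seq uses a transposase to cut open DNA, so a peak marks a stretch of accessible chromatin. There were 16 libraries, 4 for each genotype, and each came from 50000 sorted HSPCs pooled from 2 mice of the same genotype and matched age. The WT controls were Ep300 fl/fl animals without Cre, so they carried the floxed alleles of the gene for p300. P300KO animals were Mx1-Cre;Ep300 fl/fl, TET2KO animals were Ep300 fl/fl;Tet2-/-, and P300KO_TET2KO animals, the double mutant, were Mx1-Cre;Ep300 fl/fl;Tet2-/-. The groups without p300 thus carried Mx1-Cre and the groups with p300 did not. An effect of Cre cannot be told apart from p300 loss in the p300 contrasts below. Every group, the controls included, received poly(I:C) in 3 doses starting at 6 to 8 weeks of age. Mx1-Cre is switched on by interferon and acts in every cell type that responds to it, and the Tet2 deletion was present from the germ line. The methods place experiments 2 weeks after poly(I:C) or at other stated times, and the age of the mice at the ATAC-seq harvest was not given in the sources used here. HSPCs were Lin- Sca1+ c-Kit+ bone marrow cells. Replicates 1 and 2 of each genotype carry a merged peak list in their labels and replicates 3 and 4 do not. They are called deposit sets 1 and 2, and nothing states what differed between them.

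Monocytes, dendritic cells and neutrophils arise from shared progenitors in which a small number of transcription factors hold each other in check. IRF8 is required for monocyte and dendritic cell progenitors and restrains neutrophil production, KLF4 acts with it in monocytes, and GFI1 represses monocytic genes and is required for neutrophils. EGR1 and EGR2 favour macrophage differentiation and are opposed by GFI1, and ID2 is an inhibitor of E proteins used by dendritic and innate lymphoid cells. p300 is a histone acetyltransferase that acts at enhancers and promoters, and TET2 oxidizes 5-methylcytosine in DNA.

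The regions on which the results turn are shown as the 201 bases centred on the peak summit of the strongest library, read from the mm10 plus strand, 5′ to 3′. Capitals mark exact matches to a set of transcription factor motifs searched on both strands. The first 3 are the start-site regions of the central monocytic pair Irf8 and Klf4 and of the granulocytic regulator Gfi1. The other 2 are the distal Irf8 region that ranked highest and the only distal member region that passed the strength test.
Irf8 start site, chr8:120736191-120736391: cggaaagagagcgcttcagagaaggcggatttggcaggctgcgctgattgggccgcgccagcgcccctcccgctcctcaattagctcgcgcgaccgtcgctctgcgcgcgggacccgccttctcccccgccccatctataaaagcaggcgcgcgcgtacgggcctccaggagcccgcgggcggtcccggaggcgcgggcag
Klf4 start site, chr4:55532474-55532674: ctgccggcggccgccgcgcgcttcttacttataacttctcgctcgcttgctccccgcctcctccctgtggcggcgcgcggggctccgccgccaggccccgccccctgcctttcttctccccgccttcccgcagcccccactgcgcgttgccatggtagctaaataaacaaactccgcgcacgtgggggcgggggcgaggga
Gfi1 start site, chr5:107725432-107725632: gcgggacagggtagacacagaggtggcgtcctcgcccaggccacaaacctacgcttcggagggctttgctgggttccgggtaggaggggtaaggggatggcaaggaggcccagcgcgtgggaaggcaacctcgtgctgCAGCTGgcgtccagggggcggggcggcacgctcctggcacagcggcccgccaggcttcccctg
Irf8 at −50.0 kb, chr8:120686264-120686464: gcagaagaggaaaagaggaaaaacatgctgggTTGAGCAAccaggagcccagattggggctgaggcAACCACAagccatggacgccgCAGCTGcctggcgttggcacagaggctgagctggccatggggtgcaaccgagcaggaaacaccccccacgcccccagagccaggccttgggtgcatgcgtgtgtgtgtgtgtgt
Irf8 at −20.9 kb, chr8:120715383-120715583: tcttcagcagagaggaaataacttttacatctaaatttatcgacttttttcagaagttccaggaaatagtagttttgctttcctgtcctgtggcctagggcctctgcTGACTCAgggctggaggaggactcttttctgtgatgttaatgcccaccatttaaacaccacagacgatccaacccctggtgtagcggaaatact

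The start-site windows were rich in G and C. The Irf8 window was 71.6% GC with 29 CpG dinucleotides, the Klf4 window 70.6% with 25, and the Gfi1 window 70.1% with 15. None of the motifs searched was found in the Irf8 and Klf4 start-site windows. The Gfi1 window held the E-box CAGCTG, a letter pattern bound by basic helix-loop-helix factors, 38 bases from the summit. The Irf8 window at −50.0 kb held a Cebp match TTGAGCAA, a Runx match AACCACA and a CAGCTG E-box, at −68, −34 and −13 bases from its summit. The Irf8 window at −20.9 kb was the poorest in G and C of the 54 member windows (44.3%, against a median of 58.0% for the members and 55.2% for all 39310 windows) and held an AP-1 match TGACTCA at 7 bases from its summit.

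Matches were counted in the 54 member windows and in all windows of the same length. The E-box CAGCTG was found in 12 of the 54 member windows (22.2%) and in 15.3% of all windows. GAGGAAG, the Ets pattern read by PU.1 (Spi1), was found in 6 member windows (11.1%) and in 18.7% of all windows. The Cebp pattern TTNNGCAA was in 5 member windows (9.26%, against 7.85%). The Irf pattern GAAANNGAA was in 3 (5.56%, against 6.33%), as was the Gata pattern AGATAA (7.34% of all windows). The AP-1 pattern was in 3 as well (7.14% of all windows), searched as TGA and TCA with any base between them. TGTGGTT (Runx, 9.62% of all windows), GGAANNGAA (an Ets core joined to an Irf core, 6.86%), AAATCAC (Gfi1, 1.77%) and CAACTGNC (Myb, 2.44%) were in 2 member windows each. GTGGGCG (Egr, 6.31% of all windows) was in 1, and GGGTGTGG (Klf, 2.67%) was in 0. Some of these patterns can overlap, as GAGGAAG and the pattern of an Ets core joined to an Irf core share GGAA. A match is a letter pattern and not a bound site.

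The level of a region is given as its rank percentile, its place within the library's own peak list when peaks are ordered by their −log10 p, with 100 for the strongest peak. Because the lists carry no read counts, the depth behind each library is unknown, and levels compare ranks rather than amounts of open chromatin. All 10 genes had an accessible start site in all 16 libraries. Among 16351 protein-coding genes with a start-site region, the median level was 91.1.

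Id2 had the highest start site among the 10 (96.1 ± 0.802, SD over 16 libraries) and Zeb2, a repressor required for monocytes and plasmacytoid dendritic cells, the lowest (68.9 ± 6.24). Egr2 (95.7 ± 0.665), Irf8 (95.1 ± 0.888), Egr1 (94.7 ± 0.571) and Nr4a1 (94.4 ± 0.690), an orphan nuclear receptor required for patrolling monocytes, followed Id2. Neighbours among these first 5 genes differed by less than the SD of their paired difference across libraries. Nr4a1 exceeded Klf4 (92.0 ± 1.85) by 2.42 ± 1.77 and was the higher in 14 of 16 libraries. Klf4, Irf4 (91.8 ± 1.72) and Irf5 (90.3 ± 2.56) differed by less than that spread. IRF4 acts in dendritic cells and lymphocytes, and IRF5 in inflammatory macrophages. Gfi1 (83.8 ± 4.03) was below Irf5 by 6.49 ± 5.27, in 14 of 16 libraries, and above Zeb2 by 14.9 ± 7.08, in 16 of 16.

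Against all start-site regions, Id2 stood above 73.0% of genes, Irf8 above 67.2%, Klf4 above 53.2%, Gfi1 above 36% and Zeb2 above 25.5%. The granulocytic regulator thus sat below 7 of the 8 monocytic regulators in these progenitors, with a single granulocytic gene and no test between the roles.

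**Figure D1:**
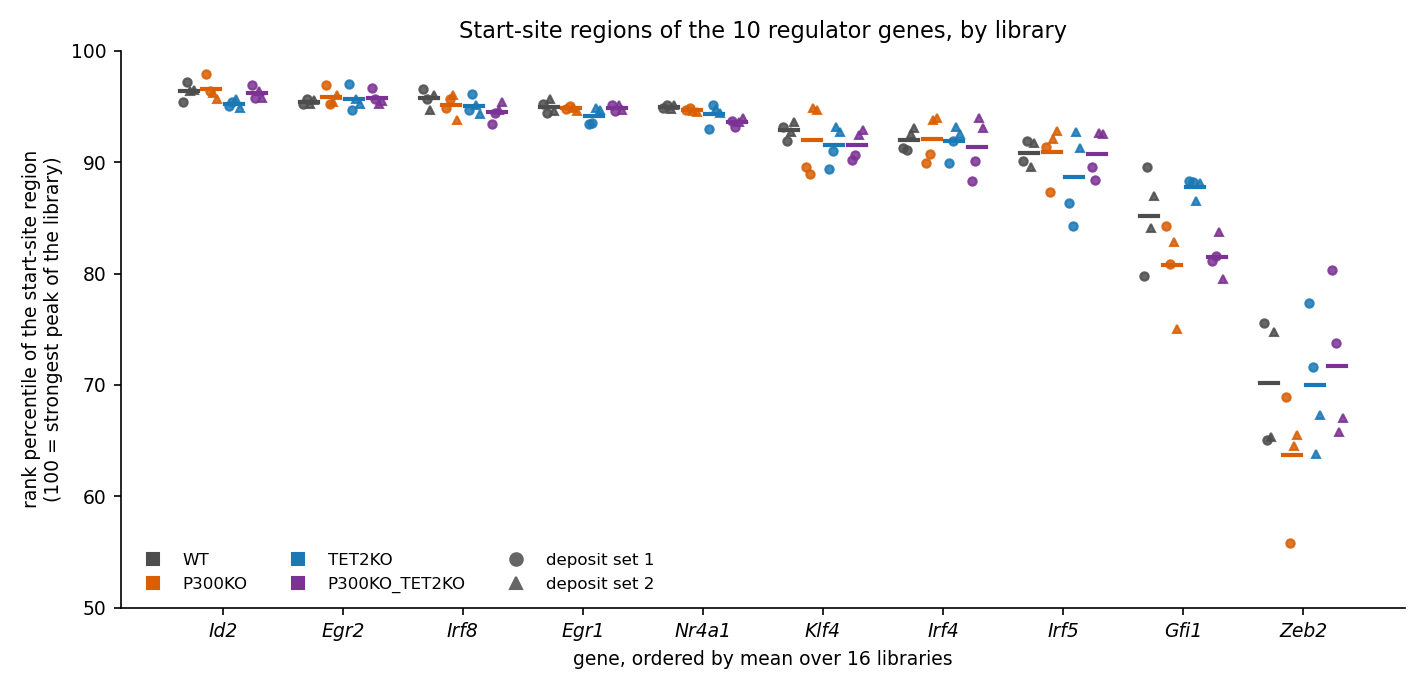
Rank percentile of the start-site region (y axis, linear, from 50 to 100, where 100 is the strongest peak of the library) for the 10 genes ordered by their mean over 16 libraries, with 1 point per library coloured by genotype and shaped by deposit set. The points of Id2, Egr2, Irf8, Egr1 and Nr4a1 lie within a few percentiles of each other, those of Gfi1 run from 75 to 89.6, and those of Zeb2 from 55.8 to 80.3.

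The number of regions per gene varied more than the start-site level. Irf8, with the widest flanks, held 59 regions over 140.3 kb, of which 11 were in all 16 libraries, and WT libraries showed 26.2 ± 10.3 of them (SD, n = 4). Zeb2, whose gene body is the longest, held 54 regions over 174 kb, 7 of them in all 16 libraries. Scaled to the window, WT libraries showed 28.9 ± 8.37 regions per 100 kb at Nr4a1, 18.7 ± 7.35 at Irf8, 15.7 ± 2.55 at Gfi1 and 9.93 at Zeb2. Klf4 had 8.27 and Egr2 9.10 regions per 100 kb. At Irf5 and Klf4, 42.9% of regions were present in all 4 WT libraries, at Gfi1 35.7% were, and at Irf8 18.6% and Irf4 10% were. Member regions were shared between libraries more often than regions at large: 23.7% were in all 16 libraries, against 13.3% of all regions, and 30.3% were in 1 library only, against 45.6%. The WT group shared 57 member regions among its 4 libraries, the P300KO group 76, the TET2KO group 80 and the double mutant 89. The same order held over all regions (44385, 57212, 62684 and 75149). Replicate 1 of WT had the least sequence under peaks of all libraries (32.0 Mb), and its part in the low WT numbers was not tested.

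Irf8 lies at chr8:120736358-120756694 on the plus strand (ENSMUSG00000041515.10), inside the span of a long predicted gene, Gm20388, whose introns hold most of its distal regions. Its start-site region, chr8:120735746-120736934, stood at 96.6, 95.7, 94.7 and 96.0 in WT and at 94.9, 95.7, 96.0 and 93.8 in P300KO. It stood at 94.7, 96.1, 95.1 and 94.3 in TET2KO, with 93.4, 94.4, 94.7 and 95.4 in the double mutant. The 4 genotypes overlapped. The difference with p300 loss over both Tet2 backgrounds was −0.068 ± 0.061 (SE) on the normal scores of the rank, with an adjusted p of 0.612 in limma, and with Tet2 loss it was −0.074 ± 0.061 (adjusted p = 0.620).

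Normal scores turn the rank among the 39310 shared regions into a bell-shaped scale with unit SD, and limma fitted them with the genotype and the deposit set as terms. All differences below are on this scale and all adjusted p are Benjamini-Hochberg values over the 39310 regions.

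Upstream of Irf8 the strongest regions had mean levels between the lower quartile (67.7) and the median (91.1) of protein-coding start-site regions. The region at −50.0 kb (chr8:120685777-120686888, over the start of the predicted gene Gm33142) stood at 88.3 ± 2.66 in WT, 87.2 ± 5.81 in P300KO, 86.8 ± 6.17 in TET2KO, with 89.0 ± 3.39 in the double mutant (SD, n = 4 each). The region at −34.1 kb (chr8:120701705-120702707) stood at 88.7 ± 1.22, 86.4 ± 1.51, 85.9 ± 3.50 and 83.6 ± 3.63 in that order. Its differences were −0.16 ± 0.067 with p300 loss (adjusted p = 0.224 in limma) and −0.16 with Tet2 loss (adjusted p = 0.259), neither past the threshold.

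The region at −39.1 kb (chr8:120696447-120698159) had group means of 86.7, 83.4, 81.5 and 82.1. Downstream of the gene, the regions at 56.6 kb (chr8:120792490-120793624) and 60.1 kb (chr8:120796161-120796793) had means of 82.9, 77.2, 79.2 and 78.7 and of 85.7, 84.6, 82.9 and 83.2. None of these 5 regions passed the test for either loss. The region at 32.6 kb (chr8:120768533-120769231) was the Irf8 region with the lowest adjusted p for Tet2 loss, −0.62 ± 0.19 (adjusted p = 0.117 in limma), with means of 39.2, 48.0, 24.5 and 36. Of the 11 Irf8 regions tested, 9 had a lower value with Tet2 loss (81.8%, against 47.3% of all 39310 regions) and 0 were called, against 1.13% of all regions. At an unadjusted p under 0.05, 3 of them were lower and 0 higher (27.3%, against 14.2% of all regions).

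**Figure D2:**
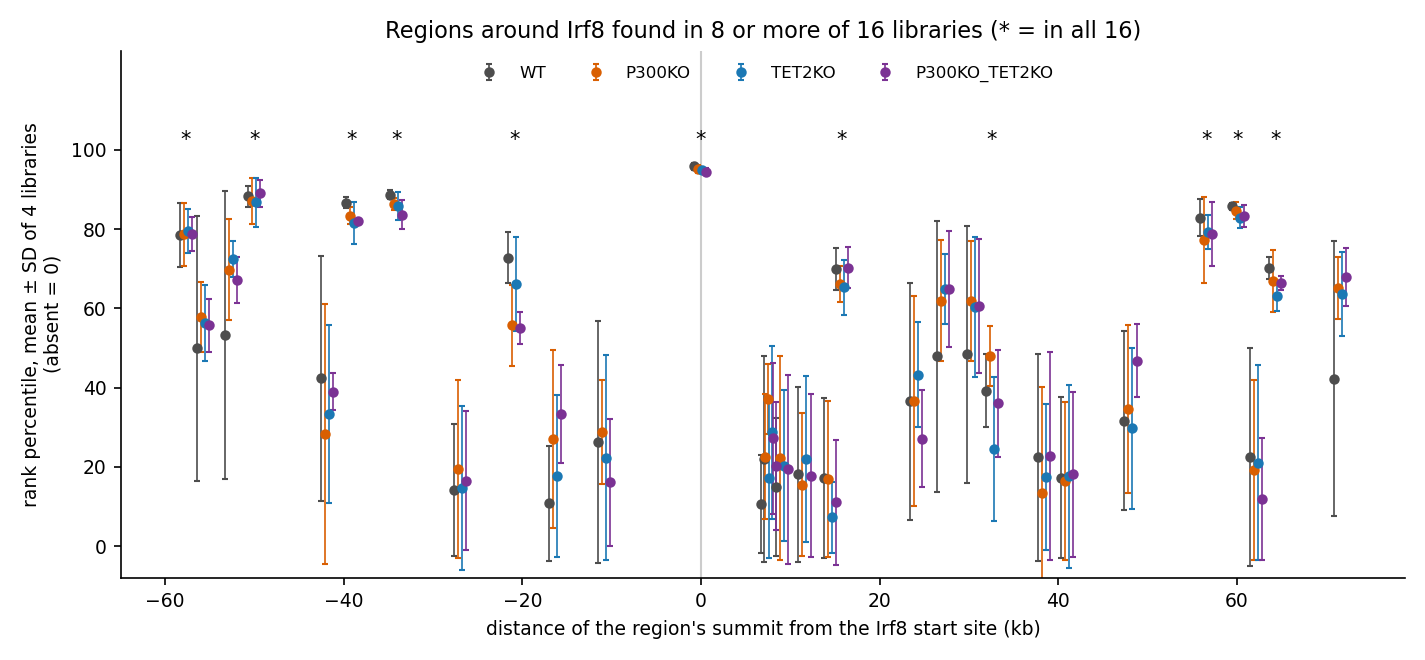
Rank percentile (y axis, mean ± SD of 4 libraries per genotype, absent counted as 0) of the Irf8 regions found in 8 or more of the 16 libraries, against the distance of the region's summit from the Irf8 start site in kb (x axis), coloured by genotype, with stars on regions found in all 16. The genotypes overlap at most regions, and the region at −20.9 kb has WT at 72.8 against 55.7 in P300KO and 55.0 in P300KO_TET2KO.

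The region at −20.9 kb of Irf8 fell with p300 loss. It spans 742 bp, chr8:120715041-120715782, within an intron of Gm20388, and its sequence is the AT-rich one printed above. It stood at 65.7, 81.4, 71.1 and 72.9 in WT, at 65.7, 63.5, 47.0 and 46.7 in P300KO, at 49.6, 77.2, 67.9 and 70.1 in TET2KO, with 50, 57.5, 58.9 and 53.4 in the double mutant. The highest P300KO library equalled the lowest WT library at the precision given, and the lowest TET2KO library lay below all 4 double-mutant libraries. The difference with p300 loss was −0.70 ± 0.19 (adjusted p = 0.0445 in limma). By background it was −0.80 ± 0.27 in P300KO against WT (adjusted p = 0.147) and −0.60 in P300KO_TET2KO against TET2KO (adjusted p = 0.551). Within deposit set 1 the differences were −0.33 without and −0.58 with Tet2 loss, and within set 2 they were −1.26 and −0.62. With Tet2 loss the region differed by −0.19 (adjusted p = 0.699).

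The Gfi1 start-site region also fell with p300 loss. It is 1844 bp wide, chr5:107724679-107726522, at the 5′ end of Gfi1 (minus strand, chr5:107716657-107726036), and also covers a start of the noncoding gene A430072P03Rik, so that the peak cannot be given to Gfi1 alone. It stood at 79.8, 89.6, 84.1 and 87.0 in WT and at 84.3, 80.9, 82.8 and 75 in P300KO, which overlap. It stood at 88.3, 88.2, 86.5 and 88.1 in TET2KO, with 81.1, 81.6, 83.7 and 79.5 in the double mutant, which do not overlap. The difference with p300 loss was −0.35 ± 0.092 (adjusted p = 0.0361 in limma). By background it was −0.27 in P300KO against WT (adjusted p = 0.316) and −0.44 ± 0.13 in P300KO_TET2KO against TET2KO (adjusted p = 0.231). Within set 1 the differences were −0.052 without and −0.49 with Tet2 loss, and within set 2 they were −0.49 and −0.39. With Tet2 loss the region differed by 0.12 (adjusted p = 0.598).

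**Figure D3:**
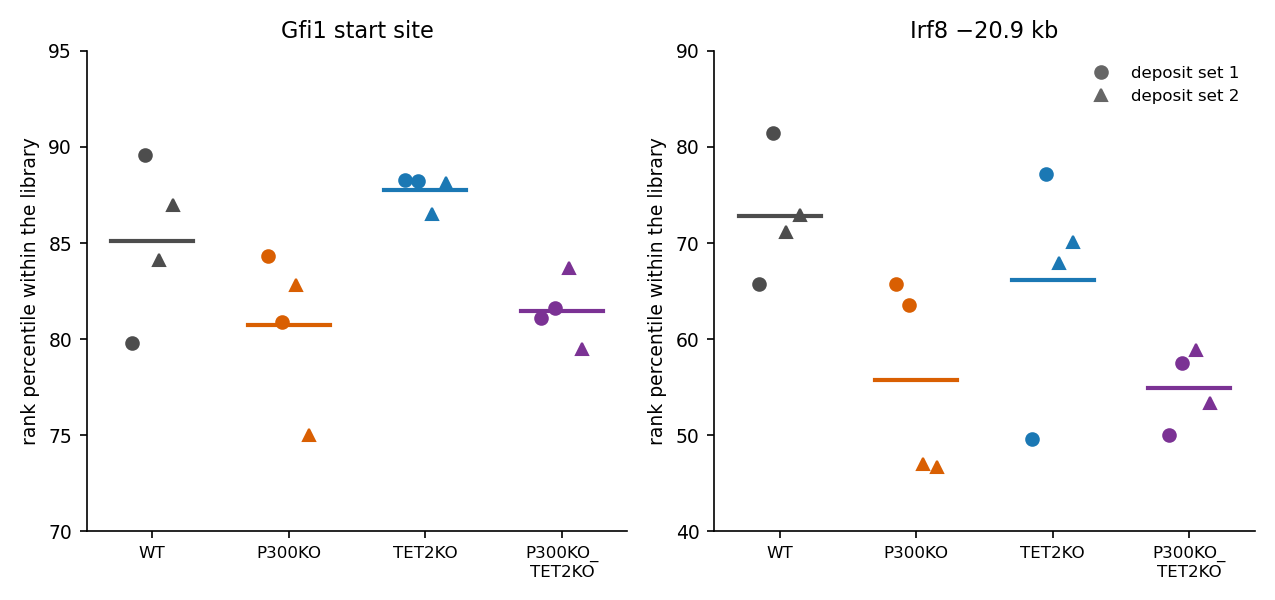
Rank percentile within the library (y axis, linear, 70 to 95 for Gfi1 and 40 to 90 for Irf8) of the Gfi1 start-site region and the Irf8 region at −20.9 kb in the 4 genotypes, with 1 point per library shaped by deposit set and a bar for each mean. Both regions are lower in the groups without p300, with means of 80.8 and 81.5 against 85.1 and 87.8 at Gfi1 and of 55.7 and 55.0 against 72.8 and 66.2 at Irf8.

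Both calls lay near the threshold. Leaving out 1 library at a time kept the Gfi1 call in 5 of 16 omissions (adjusted p from 0.00365 to 0.0831, difference from −0.42 to −0.29) and the Irf8 call in 4 of 16 (0.0112 to 0.104, −0.84 to −0.62). Without replicate 1 of WT, the library with the least covered sequence, the adjusted p values were 0.00365 and 0.0158. Ranking by fold enrichment in place of −log10 p gave −0.42 (adjusted p = 0.0659) and −0.48 (adjusted p = 0.138) in limma, so neither call held there.

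These 2 regions, both lower, were the members called with p300 loss among the 54 tested. Over all 39310 regions 2.99% were called in either direction and 1.91% were called lower, so a count of 2 among 54 is near the background and is not a result about these genes as a group. Of the 1177 calls over all regions, 749 were lower and 428 higher, but when ranked by fold enrichment 295 were lower and 497 higher, so the share called lower (0.75% there) depended on the rank measure. The median difference was −0.011 over the 54 member regions and 0.009 over all regions, with 30 members lower and 24 higher. At an unadjusted p under 0.05, 7 members were lower and 3 higher, which is 18.5% of them against 17.4% of all regions. Of the 47 regions tested at monocytic regulators 1 was called, of the 4 at Gfi1 1 was called, and of the 3 at Id2 0 were, with 0 of the 3 past an unadjusted p of 0.05.

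With Tet2 loss 0 of the 54 were called by limma, against 1.13% of all regions, and at an unadjusted p under 0.05 6 were lower and 2 higher (14.8%, against 14.2% of all regions). The lowest adjusted p was 0.109, for the intergenic region at 136 kb of Zeb2. The 4 pairs of genotypes that were fitted on their own, each single mutant against WT and the double mutant against each single mutant, also gave 0 called member regions. Over all regions, 0.178% were called in the double mutant against TET2KO and 0.333% in the double mutant against P300KO. For P300KO against WT the share was 0.588%, and for TET2KO against WT it was 0.0178%. These shares depended on single libraries and on the settings. At an unadjusted p under 0.05 in limma, 9.26% of members passed for the double mutant against TET2KO (8.18% of all regions), and 11.1% passed for each single mutant against WT (15.9% of all regions for P300KO and 11.0% for TET2KO). For the double mutant against P300KO, 2 were lower and 1 higher (5.56%, against 9.22% of all regions). The interaction between the losses was called at 0 members and at 0% of all regions, with 2045 of all regions and 3 members under an unadjusted p of 0.05. The region at 37.1 kb of Irf4 had the strongest interaction value among members (−0.75, adjusted p = 0.926 in limma).

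**Figure D4:**
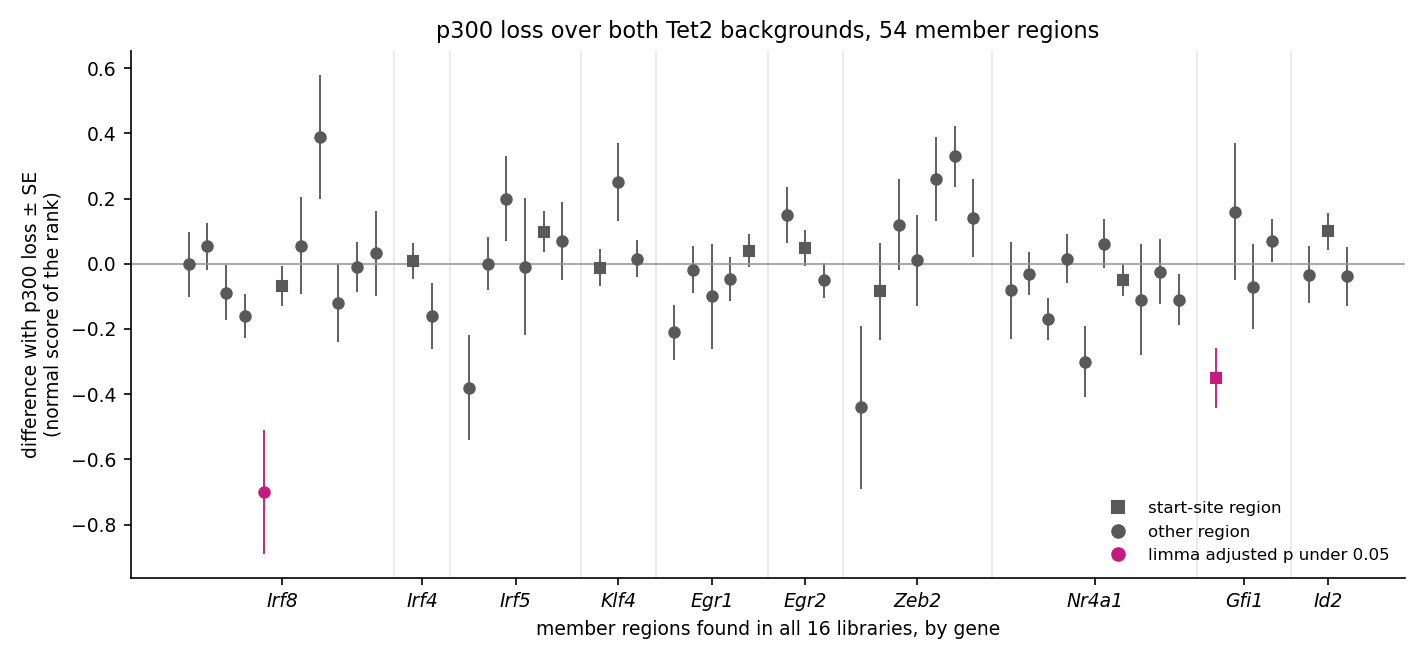
Difference with p300 loss over both Tet2 backgrounds (y axis, normal score of the rank, ± SE) for the 54 member regions found in all 16 libraries, grouped by gene along the x axis, with squares for start-site regions, circles for others and a separate colour for an adjusted p under 0.05 in limma. The values scatter on both sides of 0, and the coloured points are the Irf8 region at −20.9 kb (−0.70) and the Gfi1 start-site region (−0.35).

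The strongest of the other Gfi1 regions lay in the 3′ flank, at 26.7 kb from the start in an exon of 4930428O21Rik (chr5:107698448-107699576), and at 88.7 it ranked above the Gfi1 start site. It stood at 90.1 ± 2.42 in WT, 90.1 ± 1.51 in P300KO, 86.5 ± 1.53 in TET2KO, with 88.0 ± 1.67 in the double mutant, and differed by 0.071 with p300 loss and by −0.22 ± 0.067 with Tet2 loss (adjusted p = 0.125 in limma). A second promoter-proximal region at 1.7 kb stood at 62.8, 65.2, 50.3 and 54.9. When regions present in at least 8 libraries were also tested, 112 member regions entered and neither of the 2 calls above was made. A region in an exon at 7.6 kb of Gfi1 (chr5:107717356-107718424) was called instead, with a difference of −0.91 ± 0.18 (adjusted p = 0.0143 in limma). It stood at 34.0, 48.6, 71.1 and 70.7 in WT and at 21.0, absent, 22.1 and 17.6 in the double mutant. P300KO had it at absent, 4.16, 51.1 and 48.7, and TET2KO at 35.1, 3.35, 64.8 and 66.6, so deposit set 2 carried the higher levels in the 3 groups other than the double mutant. At this filter 1532 of 100435 regions were called.

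Nr4a1 held the highest ranked member regions. The region at 17.1 kb, which is the start site of its neighbour Atg101 (chr15:101283589-101284639), stood at 97.6 over 16 libraries, and an intergenic region at −20.3 kb (chr15:101246092-101246903) at 97.5. The Nr4a1 start site (chr15:101266239-101267315) stood between 94.8 and 95.1 in WT and between 93.2 and 94.0 in the double mutant, with 94.5 to 94.9 in P300KO and 93.0 to 95.1 in TET2KO. WT and the double mutant did not overlap, but that pair was not fitted and was picked out after its values were seen. How many of all regions separate 2 genotypes in this way was not counted. For this start site limma gave −0.049 ± 0.049 with p300 loss (adjusted p = 0.655) and −0.086 ± 0.049 with Tet2 loss (adjusted p = 0.446). Of its 10 regions tested, 8 had a lower value with p300 loss (80%, against 47.4% of all regions) and 0 were called, against 2.99% of all regions. At an unadjusted p under 0.05, 2 of the 10 were lower and 0 higher (20%, against 17.4% of all regions). With the filter of 8 libraries, the region at −8.2 kb (chr15:101258334-101259029) was called lower with p300 loss, −0.71 ± 0.17 (adjusted p = 0.0351 in limma). It stood at absent, 48.4, 78.2 and 71.6 in WT, 13, 20.5, 46.4 and 43.8 in P300KO, 38.3, 52.5, 67.4 and 77.4 in TET2KO, with 30.4, 21.2, 33.7 and 33.7 in the double mutant. Apart from replicate 1 of WT, where it was absent, the libraries with p300 were the higher ones within each deposit set.

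At Zeb2 (chr2:44983632-45117395, minus strand) the lowest adjusted p belonged to a value in the other direction, which missed the threshold. The intronic region at 67.9 kb (chr2:45049221-45050251) had means of 79.5, 81.6, 76.1 and 83.6 in WT, P300KO, TET2KO and P300KO_TET2KO. The difference with p300 loss was 0.33 ± 0.094 (adjusted p = 0.0568 in limma), and it passed the threshold in set 2 alone (0.47, adjusted p = 0.00702), without replicate 1 of WT (0.35, adjusted p = 0.0267) and without replicate 2 of WT (0.37, adjusted p = 0.0273). The Zeb2 start site had means of 70.2, 63.7, 70 and 71.7, with −0.085 ± 0.15 for p300 loss (adjusted p = 0.824). Its strongest region, at 136 kb (chr2:44981496-44982223), stood at 44.8, 69.9, 91.5 and 92.7 in WT, low in deposit set 1 and high in set 2. Group means were 74.7 for WT, 84.7 for P300KO, 88.5 for TET2KO and 86.8 for the double mutant. With the set as a term the difference with Tet2 loss was 0.40 ± 0.12 (adjusted p = 0.109 in limma), and it passed the threshold only without replicate 4 of WT (0.48, adjusted p = 0.0454) among the omissions.

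Klf4 (chr4:55527143-55532466, minus strand) had a distal region that outranked its own start site. The intergenic region at 17.6 kb (chr4:55514520-55515407) averaged 93.4 over the libraries, against 92.0 for the start site, and stood between 88.2 and 96.4. The Klf4 start site had means of 92.8 in WT, 92.0 in P300KO, 91.6 in TET2KO, with 91.5 in the double mutant, with −0.012 ± 0.057 for p300 loss (adjusted p = 0.941 in limma).

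Among the remaining interferon regulatory factors, the start sites of Irf4 (chr13:30748834-30749834) and Irf5 (chr6:29528691-29529717) differed by 0.009 ± 0.055 and 0.098 ± 0.063 with p300 loss (adjusted p = 0.954 and 0.440 in limma). Both were higher in deposit set 2 (93.3 and 91.9) than in set 1 (90.4 and 88.7), as was the Klf4 start site (93.4 against 90.6). The lists of set 2 were longer (130610 to 137335 peaks, against 86039 to 110055 in set 1). A peak at the same place from the top has a higher percentile in a longer list, so these levels do not compare the sets. The strongest other regions were at 37.1 kb of Irf4 in an exon of Gm29675 (81.2) and at −12.0 kb of Irf5 (87.2). The Irf5 region at −15.8 kb had means of 78.9, 70, 72.3 and 65.4 and a difference of −0.38 ± 0.16 with p300 loss (adjusted p = 0.205).

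The immediate early genes Egr1 and Egr2 and the inhibitor Id2 had high start sites. At Id2, TET2KO (94.9 to 95.7) and the double mutant (95.8 to 96.9) did not overlap. With p300 loss the start sites of Egr1, Egr2 and Id2 differed by 0.040 ± 0.050, 0.049 ± 0.056 and 0.099 ± 0.057 (adjusted p = 0.737, 0.706 and 0.390 in limma). Egr1 had strong upstream regions at −10.9 kb (90.2) and −4.9 kb (90.1), Egr2 had the start site of its neighbour Ado at 11.2 kb (91.7), and Id2 had a region at −2.8 kb (83.8). None of these was called in any contrast.

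Presence of peaks told the genotypes apart at 1 member region. A region was scored as gained or lost when 4 of 4 libraries of a genotype and 0 of 4 of the other had it. By that rule 0 member regions differed for P300KO or TET2KO against WT, or for the double mutant against either single mutant. Of all 296215 regions, 0.0959% differed between the double mutant and P300KO and 0.0726% between the double mutant and TET2KO. The shares against WT were 0.0236% for P300KO and 0.0213% for TET2KO. The other 2 pairs were scored after the data had been seen. Between P300KO and TET2KO 0 member regions differed (0.0463% of all regions), and between the double mutant and WT 1 did (0.148% of all regions). This was an intergenic region at −12.4 kb of Egr1, absent from all 4 WT libraries and at 30.3, 19, 28 and 22 in the double mutant. It was also present in P300KO replicates 1 and 4 (44.4 and 47.5) and TET2KO replicate 3 (32.5). Leaving out 1 library cannot undo the rule for a region that meets it with all libraries, so the omissions do not test this region. It did not meet the rule among the strongest 50000 peaks of each library, which held 0 such member regions. A count of 1 among 228 regions is near that background.

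The number of accessible regions per window was compared by a two-sided exact permutation test within deposit set and the other genotype. At Egr1 the libraries without p300 had 9.88 regions on average and those with p300 had 8.5, a difference of 1.38 (exact permutation p = 0.0185). The counts were 5, 7, 9 and 10 in WT, 10, 7, 10 and 11 in P300KO, 8, 9, 10 and 10 in TET2KO, with 10, 10, 11 and 10 in the double mutant. The low values were those of the first 2 WT libraries and replicate 2 of P300KO, and the groups overlapped. Over 20221 genes with such windows, 5.09% had an exact permutation p under 0.05 for p300 loss and 4.70% did for Tet2 loss. Without replicate 1 of WT the Egr1 difference was 1.12 (exact permutation p = 0.0648), and without replicate 1 of P300KO it was 1 (exact permutation p = 0.0648). Among the strongest 50000 peaks of each library it turned to −0.5 (exact permutation p = 0.222). At 50% coverage of the region by a peak it was 2.12 (exact permutation p = 0.00463), and with windows of 10 kb it was 0.125.

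At Irf8 the libraries without Tet2 had 29.4 regions and those with Tet2 had 27.1, a difference of 2.25 (exact permutation p = 0.0278). The counts were 16, 19, 37 and 33 in WT, 24, 22, 33 and 33 in P300KO, 21, 21, 40 and 37 in TET2KO, with 23, 24, 33 and 36 in the double mutant. The spread between deposit sets was far wider than that difference. With flanks of 60 kb, 6.12% of 20916 genes had an exact permutation p under 0.05 for Tet2 loss and 6.69% did for p300 loss. The Irf8 p rose to between 0.0556 and 0.0880 in the exact permutation test without replicate 4 of WT, replicate 1, 2 or 3 of TET2KO, or replicate 4 of P300KO_TET2KO. Among the strongest 50000 peaks the Irf8 difference was 0.25 (exact permutation p = 0.838). At 50% coverage of the region by a peak it was 4.62 (exact permutation p = 0.00617). With labels permuted across sets the exact permutation p was 0.592. No other member count reached an exact permutation p under 0.05 in either contrast, and the lowest of the rest was 0.0972. Gfi1 had 7.50 regions on average with and without p300.

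**Figure D5:**
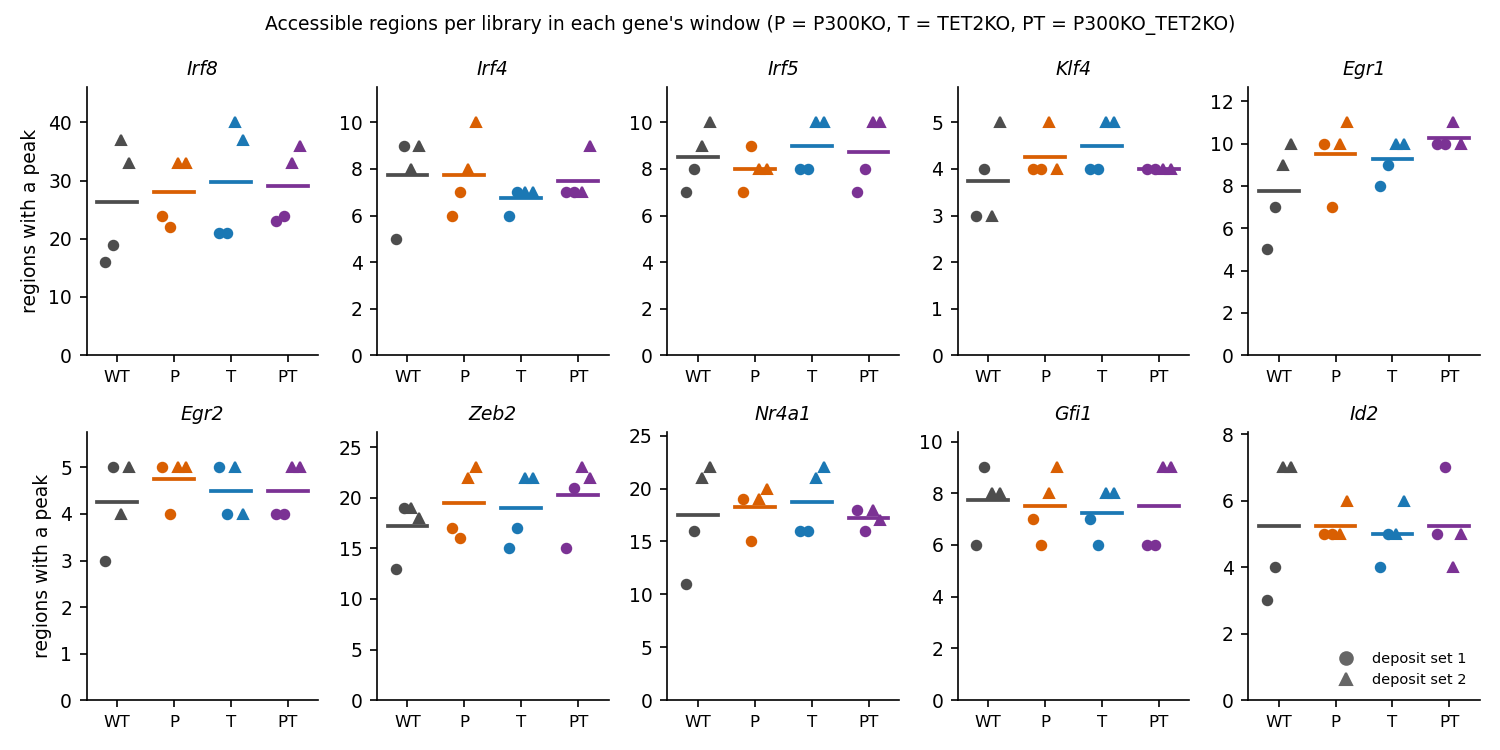
Number of accessible regions with a peak (y axis, from 0, scaled per gene) in the window of each of the 10 genes, with 1 point per library shaped by deposit set and the genotypes WT, P300KO (P), TET2KO (T) and P300KO_TET2KO (PT) along the x axis. At Irf8 the libraries of set 2 (33 to 40 regions) lie above those of set 1 (16 to 24) in every genotype, while Gfi1 stays between 6 and 9.

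Other genes of the 2 fates were read at their start sites. Of 18 further monocyte and dendritic cell genes, 16 could be tested. With p300 loss 1 was called lower and 0 higher, with a median difference of −0.045 against 0.009 over all regions, of which 2.99% were called in either direction and 1.91% lower. The called gene was Nab2, a corepressor that binds EGR proteins (chr10:127666382-127668665). It stood at 88.6, 89.6, 92.1 and 91.0 in WT, 84.4, 84.8, 87.1 and 86.4 in P300KO, 85.3, 88.1, 89.9 and 91.6 in TET2KO, with 86.5, 86.8, 87.8 and 85.7 in the double mutant. WT and P300KO did not overlap, and the difference was −0.25 ± 0.063 (adjusted p = 0.0273 in limma). The call held in 9 of 16 single-library omissions (adjusted p from 0.0149 to 0.0776) and not when ranked by fold enrichment (−0.38, adjusted p = 0.0821).

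With Tet2 loss the median difference over the 16 monocyte and dendritic cell genes was −0.010. Of 11 granulocyte genes, 6 could be tested and 0 were called by limma for either loss, against 2.99% of all regions for p300 loss and 1.13% for Tet2 loss, with medians of −0.035 for p300 loss and 0.014 for Tet2 loss. At an unadjusted p under 0.05, 0 of the 6 passed for p300 loss and 1 did for Tet2 loss, against 17.4% and 14.2% of all regions. Prtn3 and Ly6g had no start-site region in any library.

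Markers of HSPCs were open at their start sites. Regions there were present in all 16 libraries at 7 of 8 HSPC markers, with a median level of 92.3, while Ly6a was missing from 1 library. Of 5 monocyte markers 2 were in all 16 (median 49.5), of 5 neutrophil markers 1 was (36.9), and of 4 erythroid markers 2 were (23.3). None of the 4 B cell and 4 T cell markers was (7.88 and 5.62). Ly6g, Ms4a1, Cd3e and Klf1 had no start-site region in any library. The mean level over the neutrophil markers ran from 2.99 to 45.8 in WT, 22.3 to 49.3 in P300KO, 29.4 to 47.9 in TET2KO, with 32.8 to 46.2 in the double mutant, and for the monocyte markers from 22.7 to 61.5, 39.7 to 61.9, 34.5 to 60.4 and 50 to 63.1. Replicate 1 of WT had the lowest value of both lists and 32.0 Mb under peaks, against 34.7 to 59.7 Mb in the other libraries. The part of these levels in the results was not tested. In bulk chromatin a smaller share of cells with an open site and a weaker opening per cell cannot be told apart. The deleted genes themselves had open start sites throughout, from 89.5 to 96.3 at Ep300 and from 89.0 to 93.7 at Tet2, which checks nothing about the deletions.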

How the data were processed

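The deposited files were ATAC-seq peak lists, 1 for each of 16 libraries. The authors trimmed reads with cutadapt 1.9.1, aligned them to mm10 with Bowtie2 2.2.6, removed duplicates, shifted reads for the Tn5 offset and called peaks in each library on its own with MACS2 2.1.0. The deposited columns used were fold enrichment over background (a ratio), −log10 p and −log10 q, all made by the authors' peak caller. They grow with sequencing depth, which is unknown because the lists hold no read counts, so regions were compared by rank within a library. An interval listed with several summits entered once, with its strongest summit.

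Peaks of all libraries were merged with an overlap of at least 1 bp in Python 3.11.15 (numpy 2.4.6, pandas 2.3.3, matplotlib 3.10.9) and placed on GENCODE vM21 genes. A start-site region lay within 500 bp of an annotated start. Where a gene had several, the strongest was used, and distances in kb run from that start, negative for upstream. Sequences were read from the mm10 (GRCm38) genome of RefSeq. Ranks of the 39310 regions found in every library were turned into normal scores and fitted with limma 3.58.1 (lmFit and eBayes with a variance trend, R 4.3.3). The terms were the 4 genotype means and the deposit set, and p values were adjusted over all 39310 regions. The calculations were tested on simulated data.

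The members, gene lists, motifs and tests were chosen with earlier results of these data known. Named regions were each start site, the strongest other region per gene, the 5 strongest distal regions of Irf8 and every region called. Regions outside that rule (at Irf5 −15.8 kb, Irf8 32.6 kb, Zeb2 67.9 kb, Nr4a1 −20.3 and −8.2 kb, Gfi1 1.7 and 7.6 kb, and Egr1 −4.9 and −12.4 kb) were named after their values were seen. Libraries were pools of separate mice. Alternatives were other rank measures, filters, windows and model terms, each deposit set alone, and each library left out. A result for Tet2 loss at another monocyte and dendritic cell gene is not reported here.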

Additional observations from a re-analysis of the deposited data

Results flagged for a closer look

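In 140 groups of 4 libraries (the 10 start-site regions, the other named regions and the region counts, by genotype), 9 held a library far from the other 3 by Dixon's criterion. Chance gives about 1 in 20 groups for normally distributed values. That rate does not hold for the region counts, where 1 count that differs from 3 tied ones always passes.

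The Gfi1 start-site region stood at 86.5 in replicate 3 of TET2KO, against 88.1 to 88.3 in the other TET2KO libraries, still above every P300KO_TET2KO library. The region at the start of Ado, 11.2 kb from the Egr2 start, stood at 91.3 in replicate 1 of P300KO_TET2KO against 91.8 to 91.9 in the others.

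The other 7 were counts of regions in a window. Zeb2 had 13 regions in replicate 1 of WT against 18 to 19 in the other WT libraries. Irf4 had 6 regions in replicate 1 of TET2KO against 7, and 9 in replicate 4 of P300KO_TET2KO against 7. Klf4 had 5 regions in replicate 3 of P300KO against 4. Egr1 had 11 regions in replicate 3 of P300KO_TET2KO against 10. Egr2 had 4 regions in replicate 2 of P300KO against 5, and Id2 had 6 in replicate 4 of P300KO against 5. Apart from Zeb2, the counts differed by 1 or 2 regions from libraries that were tied. No member region had an interaction between the losses past the threshold in limma (lowest adjusted p = 0.926).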

How the results depend on the processing

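The lists give no depth, so a region missing from a library may lie under its peak threshold. Of the counts of calls and of presence differences, 403 stayed at or near the main count and 93 moved further. Counts that stayed at 0 are among the 403. Of the values for single regions and genes, 1565 did not change sign and kept their side of the threshold. Another 64 no longer passed it, 13 newly passed it, 112 changed sign without passing it, and 1, the Egr1 count, was reversed. Members called with p300 loss (2 in the report) were 0 when ranked by fold enrichment or within the whole list, without the variance trend, without the deposit set term and in set 1 alone, 1 with rank percentiles, and 0 to 3 with 1 library left out. Start sites called (1) were 0 in those settings other than rank percentiles, 0 at a filter of at least 8 libraries, and 0 to 1 with 1 library left out. Set 2 alone called 3 members with p300 loss, the 2 of the report and the Zeb2 region at 67.9 kb. For P300KO against WT, set 2 alone called 1 member, and for Tet2 loss omissions called 0 to 1. Over all regions, p300 calls (1177) were 490 within the whole list, 201 without the set term, 0 in set 1, 3073 in set 2 and 670 to 1845 with omissions. Tet2 calls (446) were 178 by fold enrichment, 152 within the whole list, 851 at the 8-library filter, 102 without the set term, 35 in set 1 and 266 to 669 with omissions. The share of calls that were lower with p300 loss, 63.6%, was 37.2% by fold enrichment and 77.3% within the whole list, and with Tet2 loss 64.3% became 52.8% by fold enrichment. The pairwise calls over all regions also moved with omissions: 70 became 17 to 241 (double mutant against TET2KO), 131 became 59 to 316 (double mutant against P300KO), 231 became 83 to 446 (P300KO against WT) and 7 became 0 to 15 (TET2KO against WT), each highest without replicate 1 of WT, the last also without replicate 4 of TET2KO. Across the other settings they ran from 0 to 673, 3 to 365, 0 to 1105 and 0 to 18 in that order, and the interaction (0) from 0 to 13.

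Members whose region count reached an exact permutation p under 0.05 (1 per loss) were 2 for each loss at −log10 q of at least 2, and 4 for Tet2 loss where a peak had to cover 50% of the region. They were 0 for both among the strongest 50000 peaks, with windows of 10 kb (30 kb for Irf8) and with labels permuted across sets, and 0 to 2 for both with omissions. In either set alone they were 0, but there the smallest p the design allows is 0.0556, so that count says nothing. Among the strongest 50000 peaks the Egr1 difference of 1.38 was −0.5 and the Irf8 difference of 2.25 was 0.25 (exact permutation p = 0.222 and 0.838). At 50% coverage they were 2.12 and 4.62, and with the smaller windows 0.125 and 1.5. Presence, 0 for the 4 planned pairs, gave 5 regions for the double mutant against TET2KO, 5 against P300KO, 2 for P300KO and 3 for TET2KO against WT at 3 or more against at most 1 library. At 50% coverage it gave 2 for the double mutant against either single mutant. With omissions it gave 0 to 2 for the double mutant against TET2KO, and 0 to 1 for it against P300KO and for TET2KO against WT. For the double mutant against WT, a pair added after the data were seen, 1 member region became 5 gained and 1 lost at 3 or more against at most 1 library, 4 at 50% coverage, 0 among the strongest 50000 peaks and 1 to 2 with omissions. For P300KO against TET2KO, also added, 0 became 2 gained and 2 lost at 3 or more against at most 1 library, 1 at 50% coverage and 0 to 1 with omissions. The cause of these moves was not tested, and leaving out a library can only add to a count of presence differences.

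The Gfi1 call was lost without each library other than replicate 1 of WT, 1, 2 and 3 of P300KO and 3 of P300KO_TET2KO. The Irf8 call at −20.9 kb was lost without each library other than replicate 1 of WT, 1 and 2 of P300KO and 1 of TET2KO. Same-numbered libraries of different genotypes had a residual r from −0.282 to 0.0278, with 0 of 24 over 0.1. Libraries of another number in the same set gave much the same range (−0.294 to 0.0230). These values show no pairing by number and cannot exclude one. The Nab2 call was lost without replicate 3 of WT, 3 or 4 of P300KO, 2 or 4 of TET2KO, or 3 or 4 of P300KO_TET2KO. With a replicate block limma still called 2 members (adjusted p = 0.0461 at Gfi1 and 0.0375 at Irf8).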
